A study of Arabidopsis thaliana with 7 samples.

Results

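The genes described here are 50 nuclear genes of Arabidopsis thaliana for 23 proteins of the cytosolic small ribosomal subunit (40S), out of 21184 genes in the deposited table. They were chosen by protein name, from RPSA to RPS26, and with the differences between tt4-11 and Col-0 in these same libraries already known. Their differences between the genotypes are therefore given as a description. Where calls by limma are stated for them, those calls are part of the description and support nothing. Values of the 58 transcript models of these genes were summed per gene. RNA sequencing measured polyadenylated transcripts of whole seedlings, harvested 5 days after germination, of the wild type Col-0 (4 libraries, replicates 1 to 4) and of tt4-11 (3 libraries, replicates 2 to 4). tt4-11 is a null line for TT4, the gene of chalcone synthase, the enzyme that opens the flavonoid pathway. Both genotypes grew at 22 °C on medium with 2% sucrose in continuous light of about 100 µE, conditions under which seedlings make flavonoids. The mutant is 1 line, no complemented or further mutant line is among these libraries, and RNA came from aliquots of many whole seedlings.

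The 40S subunit binds messenger RNA and reads its codons, while the 60S subunit forms the peptide bonds. Plants usually hold several expressed genes for each ribosomal protein, and the copies of one protein, called paralogs here, often differ by few residues. Ribosomal protein genes are highly transcribed in growing tissue, and in plants many of their promoters carry site II elements, which TCP factors can bind, and telo boxes.

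The libraries held 2021368 to 2205449 whole reads assigned to genes. A level below is in scaled reads, the deposited values as scaled by the authors. The library totals are not equal: over all genes tested they were 1.995e+06 to 2.085e+06 in Col-0 and 1.980e+06 to 2.049e+06 in tt4-11. TT4 checked the labels: its scaled reads were 2464 to 3148 in the Col-0 libraries and 54.9 to 96.7 in the tt4-11 libraries (log2 difference -5.34, SE 0.16). By limma, with p adjusted after Benjamini and Hochberg, this gave an adjusted p = 2.99e-12. The first principal component (44.7% of the variance) separated the groups, with Col-0 replicate 1 at -43.4, the other Col-0 libraries at -18.2 to -10.4 and tt4-11 at 26.1 to 33.5. On the second (14.5%), Col-0 replicate 1 stood at 26.1 and Col-0 replicate 4 at -23.3, with the other libraries between them. Markers of shoots and roots were both present, while the flower markers AP1, AP3 and LAT52 stood at 0 to 1.94 scaled reads. Summed over 3 shoot markers, the scaled reads were 15171 to 17676 in Col-0 and 12171 to 14711 in tt4-11, with no overlap. Of the 3, PSBO1 of the oxygen-evolving complex was lower (log2 difference -0.47; limma adjusted p = 0.0119), and RBCS1A and LHCB1.3 were not called. The call of PSBO1 was lost without tt4-11 replicate 3 (limma adjusted p = 0.0569) and with length and GC trends removed (limma adjusted p = 0.180). Summed root markers, mostly PYK10, were 11987 to 13261 in Col-0 and 9972 to 12912 in tt4-11. Summed markers of seeds were 19.0 to 176 in Col-0 and 87.6 to 458 in tt4-11. Of these, SESA4, a seed storage albumin, was called higher in tt4-11 (log2 difference 2.20; limma adjusted p = 0.0457), as was OLEO1, an oil body protein (1.74; limma adjusted p = 0.0376), both with overlapping groups, while CRU3 was at 0 in 6 of the 7 libraries. Both calls were lost with DESeq2 (adjusted p = 0.272 for SESA4 and 0.144 for OLEO1) and without Col-0 replicate 1, Col-0 replicate 4, tt4-11 replicate 2 or tt4-11 replicate 3 (limma adjusted p from 0.0638 to 0.211). SESA4 also lost its call with a pseudocount of 0.1 (limma adjusted p = 0.0513), and OLEO1 without Col-0 replicate 2 (limma adjusted p = 0.0533). Summed markers of dividing cells were 398 to 465 in Col-0 and 347 to 401 in tt4-11. The part of these markers in the results was not tested. In whole seedlings, fewer cells of a type and less RNA per cell cannot be told apart.

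The promoters below show the sequence setting of the genes at both ends of the range of differences, and the annotated sites discussed further below. They are the 250 bases before the annotated gene start, from RefSeq TAIR10.1, 5′ to 3′, for the RPS26 gene AT2G40590 (chr2:16946549-16946798, minus strand), RPS4A (chr2:7546190-7546439, plus strand), RPS15A (chr1:1143131-1143380, minus strand) and RPS19C (chr5:24610782-24611031, plus strand), the members with the 2 lowest and 2 highest log2 differences among those described singly. Capitals mark TGGGCC and TGGGCT (site II), AAACCCTA (telo box) and TATAAA, on either strand.
AT2G40590: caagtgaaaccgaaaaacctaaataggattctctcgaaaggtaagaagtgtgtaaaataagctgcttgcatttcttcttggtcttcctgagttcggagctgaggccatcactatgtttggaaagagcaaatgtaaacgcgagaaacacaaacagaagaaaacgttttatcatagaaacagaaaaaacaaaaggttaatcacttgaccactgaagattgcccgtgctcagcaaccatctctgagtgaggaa
RPS4A: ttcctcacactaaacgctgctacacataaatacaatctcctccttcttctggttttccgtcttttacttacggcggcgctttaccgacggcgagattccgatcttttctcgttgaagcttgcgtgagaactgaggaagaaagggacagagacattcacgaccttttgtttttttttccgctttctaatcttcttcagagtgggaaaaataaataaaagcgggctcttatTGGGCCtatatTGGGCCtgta
RPS15A: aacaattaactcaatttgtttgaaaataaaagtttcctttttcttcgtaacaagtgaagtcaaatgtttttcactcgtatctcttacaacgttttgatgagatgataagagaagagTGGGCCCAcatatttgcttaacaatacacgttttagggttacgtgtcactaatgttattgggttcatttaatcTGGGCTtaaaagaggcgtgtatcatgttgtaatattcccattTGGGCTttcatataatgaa
RPS19C: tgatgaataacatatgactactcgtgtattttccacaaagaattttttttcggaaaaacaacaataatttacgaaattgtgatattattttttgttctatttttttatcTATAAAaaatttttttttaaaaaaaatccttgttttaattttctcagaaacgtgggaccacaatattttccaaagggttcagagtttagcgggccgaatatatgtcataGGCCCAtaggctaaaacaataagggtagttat
AT2G40590 holds no match in this window, and RPS4A holds TGGGCC at 21 and at 10 bases upstream. RPS15A holds 4, of which the overlapping TGGGCCCA counts once on each strand. RPS19C holds 1 site II match and 1 TATAAA.

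Together the 50 genes took 1.22% ± 0.0513 (SD, n = 4) of the Col-0 reads and 1.02% ± 0.0210 (SD, n = 3) of the tt4-11 reads. The lowest Col-0 library, at 1.16%, lay above the highest tt4-11 library, at 1.04%. Their summed scaled reads were 23481 to 27119 in Col-0 and 20634 to 20844 in tt4-11.

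Of the 50 genes, 42 passed the filter on low values and 8 did not. Among the 8 were RPSAB, RPS15C, RPS4B, RPS8B, RPS23A and the RPS20 gene AT5G62300, and all 8 had Col-0 means of at most 7.54 scaled reads. RPS8B had only 17 reads over the Col-0 group and 6 over the tt4-11 group, too few for a comparison. The 20 members with several annotated transcripts had a median Col-0 level of 34.4 scaled reads, against 511 for the 30 members with 1 annotated transcript, although some of the 20 were high, such as RPS9B at 909 and RPS15A at 653. RPSAA, RPS7A, RPS7B, RPS12A, RPS12C, RPS15D, RPS25B and RPS25E have several annotated transcripts, so their low values are not taken as their levels in the plant.

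Among the 42 genes, 35 log2 differences (tt4-11 minus Col-0, on log2(scaled reads + 1), a scale that understates differences of genes with few reads) were negative and 7 positive. Their median was -0.36, with quartiles of -0.46 and -0.12, and the median over all 13301 genes tested was -0.01. At an adjusted p of 0.05 by limma over all genes, 19 of the 42 were called lower in tt4-11, where 6.55% of all genes were, and 0 were called higher, where 7.07% were. At an unadjusted p under 0.05 by limma, 1 was higher, and edgeR and DESeq2 on the reads each called 0 higher. In 21 of the 42 genes the highest tt4-11 library was below the lowest Col-0 library (12.9% of all genes), and in 1, RPS19C, the order was the opposite (13.7% of all genes). These counts come from the values known when the genes were chosen, and nothing is read from them. The count of 19 moved when single tt4-11 libraries were left out: it was 7 without tt4-11 replicate 2, 7 without tt4-11 replicate 3 and 9 without tt4-11 replicate 4. The share of all genes called lower moved too, to 3.85%, 3.21% and 3.45% in the same order.

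**Figure D1:**
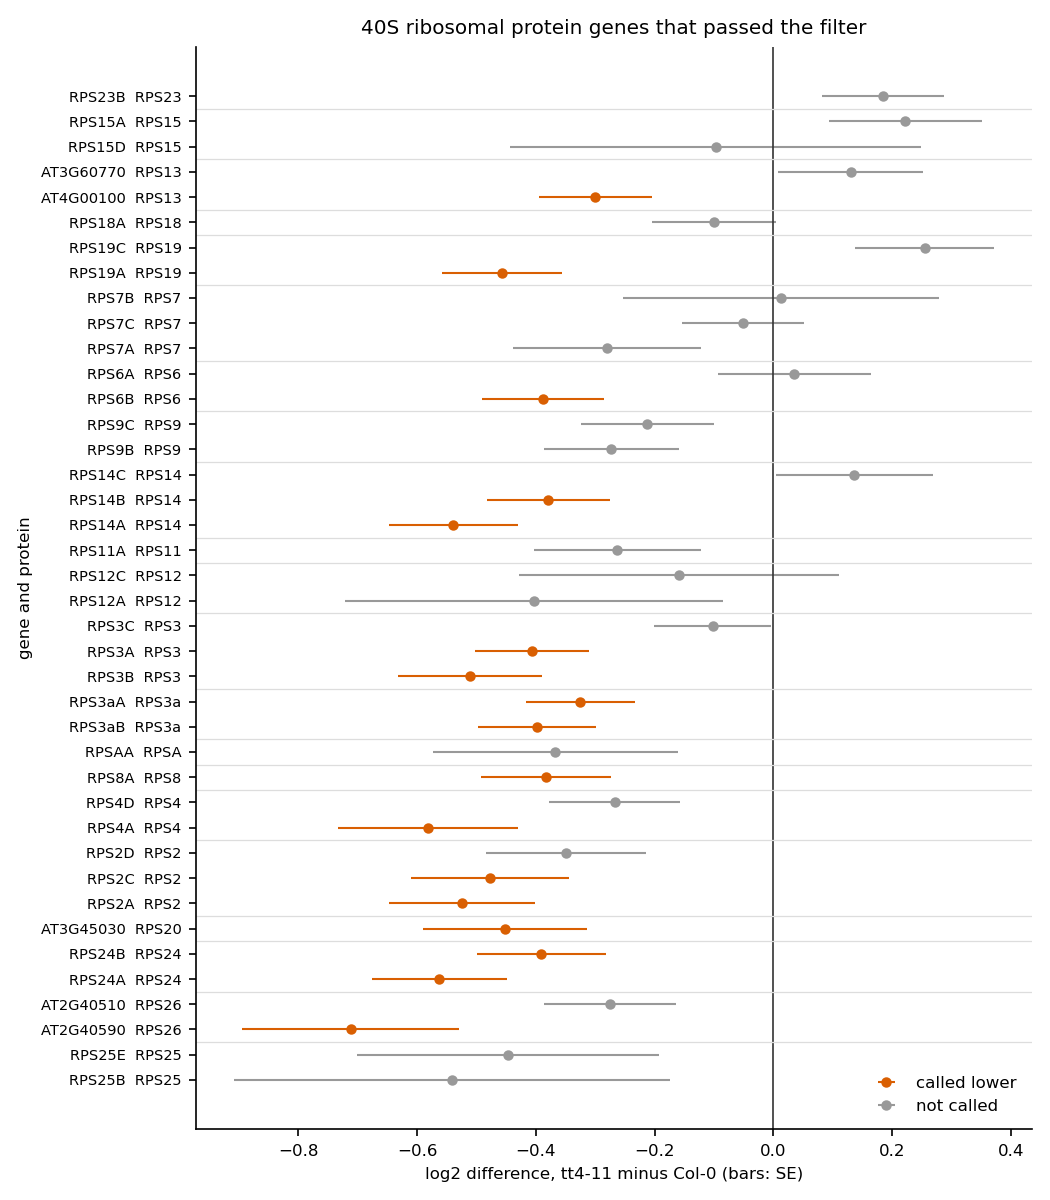
Log2 difference between tt4-11 and Col-0 (x axis, bars show the standard error) for 40 of the 42 genes that passed the filter, grouped by protein on the y axis and coloured by call. Most points lie left of 0, from -0.71 for AT2G40590 to 0.25 for RPS19C.

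Transcript length went with the differences across the genome. Over the 13161 genes with an annotated length, log2 difference and length had a Spearman's rho of 0.28 (across genes, which are not replicates), and over the 42 members the rho was 0.0074. The tested members have transcripts of 717 to 1330 bases, and the 3330 tested genes of that length had a median log2 difference of -0.16, with 13.2% called lower and 4.98% called higher. With the length trend removed, 3 of the 42 members were called lower and 3 higher, where 4.43% and 6.03% of all genes were, and the median was -0.21. With length and GC trends removed, 1 was called lower and 2 higher, where 3.81% and 5.58% of all genes were, and the median was -0.15. The 3 lower without the length trend were RPS2A, RPS14A and RPS24A, of which RPS24A stayed lower without both trends. The 3 higher were RPS15A, RPS19C and RPS23B. The part of length in the differences was not tested further.

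**Figure D2:**
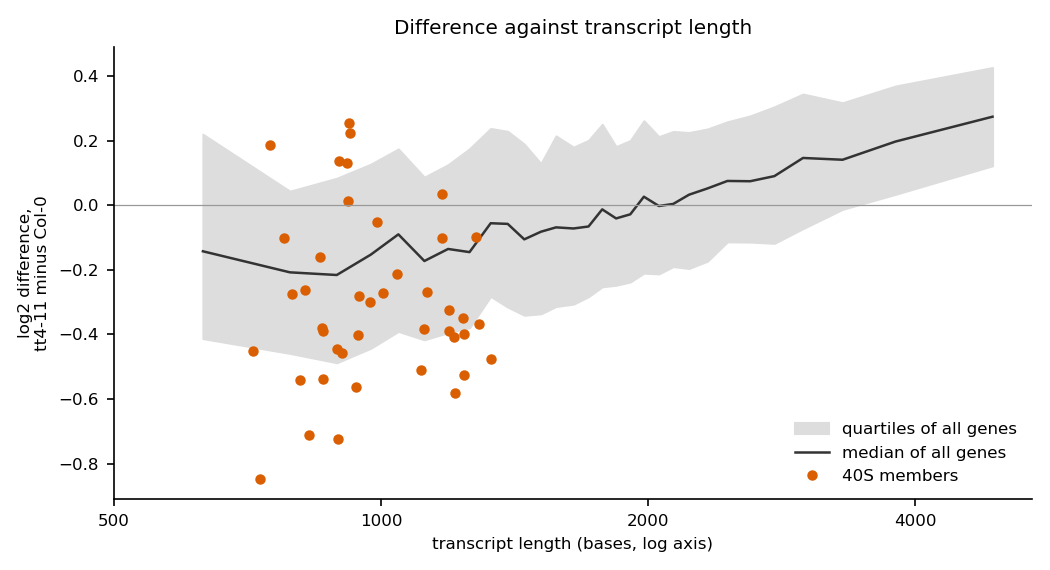
Log2 difference between tt4-11 and Col-0 (y axis) against transcript length in bases (log x axis): line and band show the median and the span between quartiles of all tested genes in bins of length, and points show the 42 members. Members lie between 717 and 1330 bases, where the line is below 0, and most but not all points are below the line.

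RPS26, at the exit of the mRNA channel, has a major and a minor gene among the members (409 and 104 scaled reads per kb of transcript in Col-0), both on chromosome 2. The minor gene AT2G40590 (16944984 to 16946548, minus strand) had 111, 73.0, 94.1 and 67 scaled reads across Col-0, in order of replicate, and 46.8, 49.7 and 57.8 across tt4-11, the order used for every gene below (log2 difference -0.71, SE 0.18). The major gene AT2G40510 (16918391 to 16919900, plus strand) had 311, 304, 312 and 371 scaled reads in Col-0, and 269, 284 and 249 in tt4-11 (-0.27, SE 0.11, not called; 0.056 with length and GC trends removed). All tt4-11 libraries were below all Col-0 libraries in both genes, and the call of AT2G40590 was lost without Col-0 replicate 3, tt4-11 replicate 2 or tt4-11 replicate 3. Sources give these paralogs opposite letters, so they are named by locus. They share 7.25% and 7.63% of their windows.

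RPS4 and RPS24, proteins that bind the ribosomal RNA, each have a pair of tested paralogs, and all 4 genes were below their Col-0 means in tt4-11. RPS4A (AT2G17360; chromosome 2, 7546440 to 7548406, plus strand) had 345, 235, 217 and 261 scaled reads in Col-0 and 199, 178 and 148 in tt4-11 (log2 difference -0.58, SE 0.15), with no overlap. The call was lost without tt4-11 replicate 3 or 4. Its paralog RPS4D, with more reads per kb of transcript (836 against 218 in Col-0) and a level of 942 ± 120 (SD, n = 4) and 778 ± 27.6 (SD, n = 3), had a log2 difference of -0.27 and overlapping groups. RPS4A has 2 annotated transcripts and RPS4D has 1, so their levels per kb may not compare. RPS24A (AT3G04920; chromosome 3, 1360837 to 1362449, plus strand) had 642, 557, 497 and 607 scaled reads in Col-0 and 437, 363 and 368 in tt4-11 (-0.56, SE 0.11), and it was called lower under every alternative that included it. With 2 annotated transcripts, it was left out of the alternative limited to genes with 1. RPS24B stood at 545 ± 55.4 (SD, n = 4) and 414 ± 33.1 (SD, n = 3), a log2 difference of -0.39.

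RPS25B (AT2G21580; chromosome 2, 9236481 to 9237846, plus strand), a paralog of a protein known in yeast and human cells for its part in internal initiation, was among the 6 lowest with a log2 difference of -0.54 (SE 0.37). It had 50.6, 34.6, 20.4 and 15 scaled reads in Col-0 and 15.9, 12.9 and 29.9 in tt4-11. The groups overlapped, and the gene was not called.

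Among the highest genes, RPS19C led. RPS19C (AT5G61170; chromosome 5, 24611032 to 24612564, plus strand, 4 exons) encodes a protein of the subunit head and had 1136, 804, 1129 and 1017 scaled reads in Col-0, and 1161, 1232 and 1232 in tt4-11. The log2 difference was 0.25 (SE 0.12), with all tt4-11 libraries above all Col-0 libraries by a small margin, and the gene was not called. Its paralog RPS19A (AT3G02080; chromosome 3, 363881 to 365376, minus strand, 4 exons) had 416, 427, 410 and 384 scaled reads in Col-0 and 317, 282 and 296 in tt4-11 (-0.46, SE 0.10), in the opposite direction and with no overlap. The call of RPS19A was lost without tt4-11 replicate 3. Their 143-residue proteins are 93.0% identical and their coding sequences 81.5%, and no 100-base window is shared. Whether shorter reads can match both genes was not tested.

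RPS15A (AT1G04270; chromosome 1, 1141558 to 1143130, minus strand), whose protein lies near the tRNAs on the subunit head, had 573, 648, 557 and 834 scaled reads in Col-0 and 823, 730 and 709 in tt4-11 (log2 difference 0.22, SE 0.13). The groups overlapped only through Col-0 replicate 4. RPS23B (AT5G02960; chromosome 5, 693079 to 694515, minus strand), whose protein sits at the decoding centre, had 1290, 1512, 1448 and 1683 scaled reads in Col-0 and 1594, 1727 and 1720 in tt4-11 (0.19, SE 0.10), again with overlap through Col-0 replicate 4. RPS15A, RPS23B and RPS19C together hold the 3 highest log2 differences of the 42.

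RPS14 binds ribosomal RNA on the platform of the subunit, and its 3 genes differed from each other by up to 0.68 on the log2 scale. RPS14B (AT3G11510; chromosome 3, 3623448 to 3624961, minus strand) had the highest level of the members per kb of transcript (3379 scaled reads in Col-0), with 3374, 2729, 2912 and 2570 scaled reads in Col-0 and 2244, 2216 and 2186 in tt4-11 (log2 difference -0.38, SE 0.10). RPS14A (AT2G36160; chromosome 2, 15169818 to 15171459, plus strand) had 450, 448, 511 and 497 in Col-0 and 371, 299 and 315 in tt4-11 (-0.54, SE 0.11). All tt4-11 libraries were below all Col-0 libraries in both. RPS14C (AT3G52580; chromosome 3, 19503153 to 19504973, plus strand) had 157, 193, 204 and 234 in Col-0 and 222, 213 and 209 in tt4-11 (0.14, SE 0.13), and its groups overlapped. The proteins are 96.7% to 98.7% identical. RPS14A kept its call without any 1 library, and RPS14B lost it without Col-0 replicate 3 or any 1 tt4-11 library.

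RPS13, a protein that contacts the bridge to the 60S subunit, also has a pair with differences of opposite sign. AT4G00100 (chromosome 4, 36916 to 38384, plus strand) had 725, 671, 771 and 706 scaled reads in Col-0 and 553, 598 and 597 in tt4-11 (log2 difference -0.30, SE 0.10). AT3G60770 (chromosome 3, 22460189 to 22461779, minus strand) had 237, 310.5, 303 and 331 in Col-0 and 345, 309 and 309 in tt4-11 (0.13, SE 0.12). The first pair of groups did not overlap and the second did, and the call of AT4G00100 was lost without any 1 library except Col-0 replicate 1. That call (limma adjusted p = 0.0473) was also lost with edgeR, with no filter and with length or length and GC trends removed. The proteins of the pair differ at 1 of 151 positions. RPS6, the subunit's best known phosphorylated protein and a target of the TOR and S6 kinase pathway, has RPS6A at 226, 176, 193 and 171 scaled reads in Col-0 and 175, 215 and 197 in tt4-11 (log2 difference 0.04, SE 0.13). RPS6B stood at 487 ± 41.3 (SD, n = 4) and 371 ± 18.1 (SD, n = 3), a log2 difference of -0.39, and lost its call without any 1 tt4-11 library. RPS6A overlapped and RPS6B did not.

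RPS3, at the entry of the mRNA channel, has 3 genes below their Col-0 means. RPS3B (AT3G53870; chromosome 3, 19951424 to 19953018, plus strand) had 2166, 1689, 1533 and 1458 scaled reads in Col-0 and 1153, 1215 and 1192 in tt4-11 (log2 difference -0.51, SE 0.12), with no overlap. The call was lost without tt4-11 replicate 2. RPS3A had a log2 difference of -0.41 and RPS3C of -0.10, the latter with overlapping groups. RPS2, next to RPS3 at that entry, gave log2 differences of -0.52 for RPS2A, -0.48 for RPS2C and -0.35 for RPS2D, and 11.3% of the windows of RPS2A also occur in other copies. RPS20, on the subunit head, gave -0.45 for AT3G45030. RPS3aA and RPS3aB, for a protein at the exit of the mRNA channel, had log2 differences of -0.33 and -0.40, and RPS8A one of -0.38.

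The other tested members were nearer 0 or had wide errors. RPS7C, at 1014 ± 101 (SD, n = 4) and 976 ± 54.8 (SD, n = 3), had a log2 difference of -0.05, RPS18A one of -0.10, RPS9B one of -0.27, RPS9C one of -0.21 and RPS11A one of -0.26. Only RPS9C of these had groups that did not overlap. Genes with several annotated transcripts and few reads gave the widest errors, such as RPS12A (-0.40, SE 0.32) and RPS15D (-0.10, SE 0.35).

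**Figure D3:**
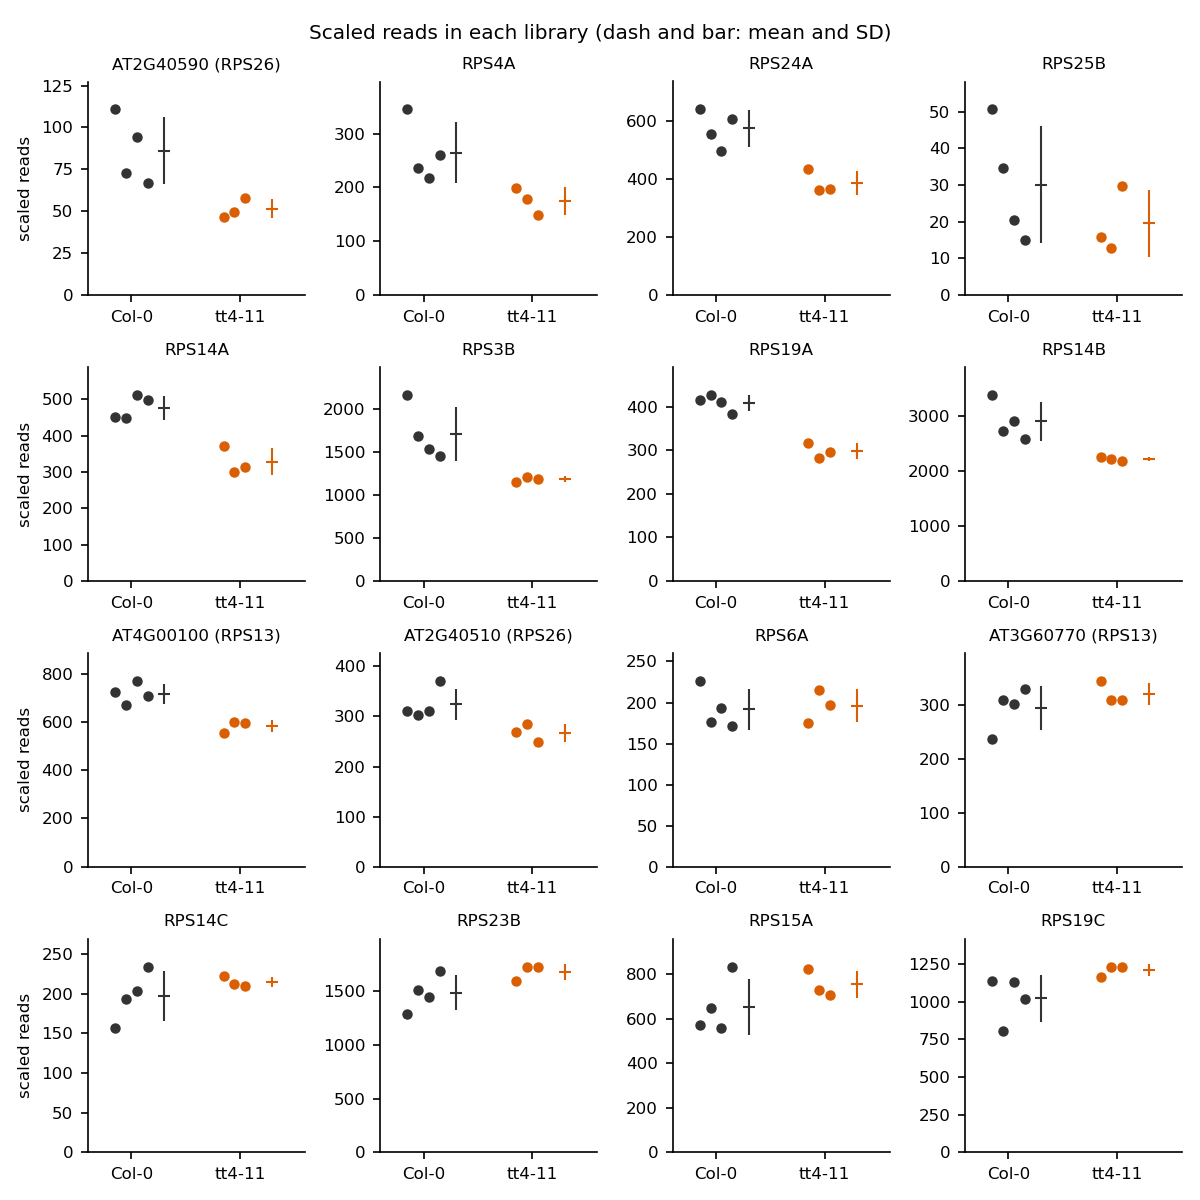
Scaled reads (y axis, from 0) in each of 4 Col-0 (dark) and 3 tt4-11 (orange) libraries for 16 members, with the mean and SD beside the points, ordered by log2 difference. The top row runs from AT2G40590, with tt4-11 below Col-0, to RPS25B, where the groups overlap, and the last 6 panels show the 6 highest differences, from RPS6A to RPS19C.

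Summed over paralogs, 12 of the 23 proteins had groups that did not overlap, all lower in tt4-11, and 11 overlapped. Among all genes tested singly, 12.9% were lower and 13.7% higher without overlap. These sums restate the member values, known when the genes were chosen, and nothing is read from the count. tt4-11 stood at 71.5% of Col-0 for RPS2, 71.7% for RPS24, 72.1% for RPS20 and 75.5% for RPS3. It stood at 115% for RPS15, 113% for RPS23 and 105% for RPS19, each with overlapping groups. Per kb of transcript, the Col-0 means reached 4153 ± 360 (SD, n = 4) scaled reads for RPS14 and 2684 ± 314 for RPS3 and were as low as 33.6 ± 6.17 for RPSA, whose genes have several annotated transcripts.

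The share of a protein's reads per kb that came from its leading gene did not overlap between the groups for 4 of the 6 proteins plotted. These 6 have the widest ranges of log2 differences between paralogs, from 0.41 for RPS3 to 0.71 for RPS19. They stand among 16 proteins with several tested members, and choosing them by that range favours a shift in share. No background over all genes was computed for this count, and nothing is read from it. RPS19C took 72.8%, 64.9%, 73.0% and 72.2% of the RPS19 total in Col-0, and 78.2%, 81.1% and 80.4% in tt4-11. RPS6B took 70.4%, 72.2%, 70.0% and 73.1% of the RPS6 total in Col-0, and 67.2%, 64.1% and 63.9% in tt4-11. AT4G00100 took 74.2%, 67.0%, 70.5% and 66.7% of the RPS13 total in Col-0, and 60.1%, 64.5% and 64.5% in tt4-11. RPS3B took 62.4%, 57.1%, 55.5% and 53.8% of the RPS3 total in Col-0, and 53.1%, 53.7% and 52.0% in tt4-11, separated by a margin far below the spread in Col-0. RPS14B kept close shares, 81.2% ± 2.82 (SD, n = 4) and 80.6% ± 1.11 (SD, n = 3), and so did RPS2C, at 83.2% ± 2.62 and 83.1% ± 1.74.

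**Figure D4:**
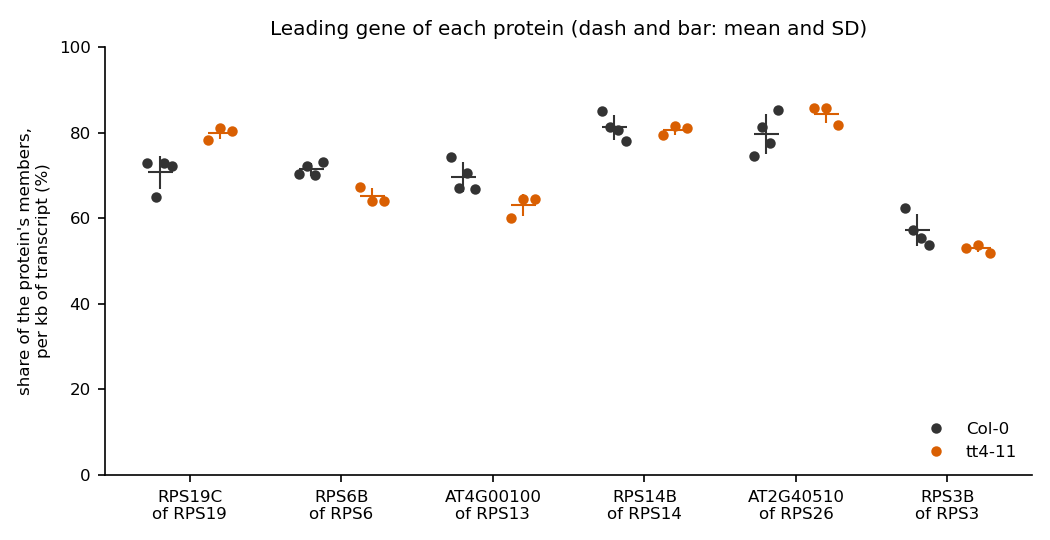
Share of a protein's summed level per kb of transcript (y axis, percent) taken by its leading gene, in each Col-0 (dark) and tt4-11 (orange) library, with the mean and SD. RPS19C averaged 70.7% in Col-0 and 79.9% in tt4-11, RPS6B 71.4% and 65.1%, and RPS14B 81.2% and 80.6%.

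Among Col-0 libraries the members varied with a median coefficient of variation of 12.7%, and among tt4-11 libraries with one of 7.31%. Col-0 replicate 1 was the highest Col-0 library in 20 of the 42 members, against 31.5% of all genes. Without Col-0 replicate 1 the members called lower numbered 21, where 5.86% of all genes were called lower.

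In the promoters, TGGGCC or TGGGCT (site II elements) occurred on either strand in 35 of the 50 members (70.0%), against 21.5% of 20533 genes of the table. A telo box, AAACCCTA, occurred in 18.0% against 3.55%, and TATAAA in 64.0% against 46.6%. The 60S genes were at 70.5% for a site II element, 23.2% for a telo box and 47.4% for TATAAA. The 40S genes that are no members were at 57.4%, 12.8% and 40.4%, in the same order. The 84 site II matches lay 8 to 150 bases upstream of the annotated gene start, with a median of 50. An overlapping TGGGCCCA counts as a match on each strand, so matches are not separate sites. Tested members with a site II element (31) had a median log2 difference of -0.38, and those without (11) -0.35. A match is a description of these letters and no evidence of binding.

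The rest of the ribosome gives the setting for these values, beside shares of 6.55% of all genes called lower and 7.07% called higher. Of 39 tested 40S genes that are no members, 10 were lower, 0 higher and 29 not called, with a median log2 difference of -0.25. RPS15aD fell by 0.66 (SE 0.13; adjusted p = 0.00303), RPS10A by 0.70 (SE 0.14; adjusted p = 0.00335), RPS11C by 0.66 (SE 0.14; adjusted p = 0.00557) and RACK1C, a signalling scaffold on the 40S head, by 0.49 (SE 0.11; adjusted p = 0.00719), all by limma with Benjamini-Hochberg adjustment. The count of 10 was 5 with the length trend removed, 5 without tt4-11 replicate 3 and 6 without tt4-11 replicate 4, and RACK1C was not called with length and GC trends removed (limma adjusted p = 0.0851). At an unadjusted p under 0.05, 0 of these genes were higher by limma, and edgeR and DESeq2 called 0 higher. Of 79 tested 60S genes, 33 were lower and 0 higher, with a median of -0.32, and 19 were lower with the length trend removed, 17 without tt4-11 replicate 3 and 18 without tt4-11 replicate 4, settings under which the share of all genes called lower fell as given above. At an unadjusted p under 0.05 by limma 3 were higher, 1 was called higher without Col-0 replicate 4 or without tt4-11 replicate 2, and edgeR and DESeq2 called 0 higher. RPL27aC went from 1058 ± 77.7 (SD, n = 4) to 664 ± 38.6 (SD, n = 3) scaled reads (-0.67, SE 0.10; adjusted p = 0.000423), RPL26A fell by 0.72 (adjusted p = 0.000686), RPL5A by 0.61 (adjusted p = 0.00147) and RPL7aB by 0.61 (adjusted p = 0.00155), by the same limma test.

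Over all genes tested, limma called 6.55% lower and 7.07% higher, the background for the limma counts of each list in this paragraph. Of 9 tested genes of the plastid 30S subunit, 3 were lower and 1 higher. PRPS20 (-0.58, adjusted p = 0.0084) and PRPS9 (-0.44, adjusted p = 0.0198) were among those that fell, while PRPS1, from 2266 ± 243 (SD, n = 4) to 3303 ± 363 (SD, n = 3), rose by 0.54 (adjusted p = 0.0045), by limma with Benjamini-Hochberg adjustment. Of 20 tested ribosome assembly genes, 3 were lower: REIL2 of 60S maturation (-0.59, adjusted p = 0.00625), FIB2, a fibrillarin (-0.63, adjusted p = 0.0127), and NUC1, a nucleolin (-0.42, adjusted p = 0.033), by the same test. Only the calls of PRPS1 and REIL2 among these 6 held under every alternative that included them. With length and GC trends removed the limma adjusted p was 0.136 for PRPS20, 0.156 for PRPS9, 0.0941 for FIB2 and 0.0607 for NUC1. Without tt4-11 replicate 3 it was 0.0514 for PRPS20 and 0.0961 for PRPS9, and PRPS9 also lost its call without Col-0 replicate 3 (0.0587) or tt4-11 replicate 2 (0.0583). Without tt4-11 replicate 4 it was 0.0550 for FIB2 and 0.09999 for NUC1, and NUC1 also lost its call without tt4-11 replicate 2 (0.142). Of 5 tested genes of the TOR and S6 kinase pathway 0 were called: S6K1 gave 0.34 (SE 0.13; limma adjusted p = 0.104) and TOR -0.75 (SE 0.38; limma adjusted p = 0.199). At an unadjusted p under 0.05 by limma 1 was higher and 0 lower, and edgeR and DESeq2 called 0. Of 8 tested genes of dividing cells, PCNA1, a DNA replication clamp, was lower (-0.58, SE 0.15; limma adjusted p = 0.0201), a call lost with DESeq2 (adjusted p = 0.0550), with the length trend removed (limma adjusted p = 0.0674), with length and GC trends removed (limma adjusted p = 0.124) and when Col-0 replicate 3, tt4-11 replicate 3 or tt4-11 replicate 4 was left out (limma adjusted p from 0.0531 to 0.0962).

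**Figure D5:**
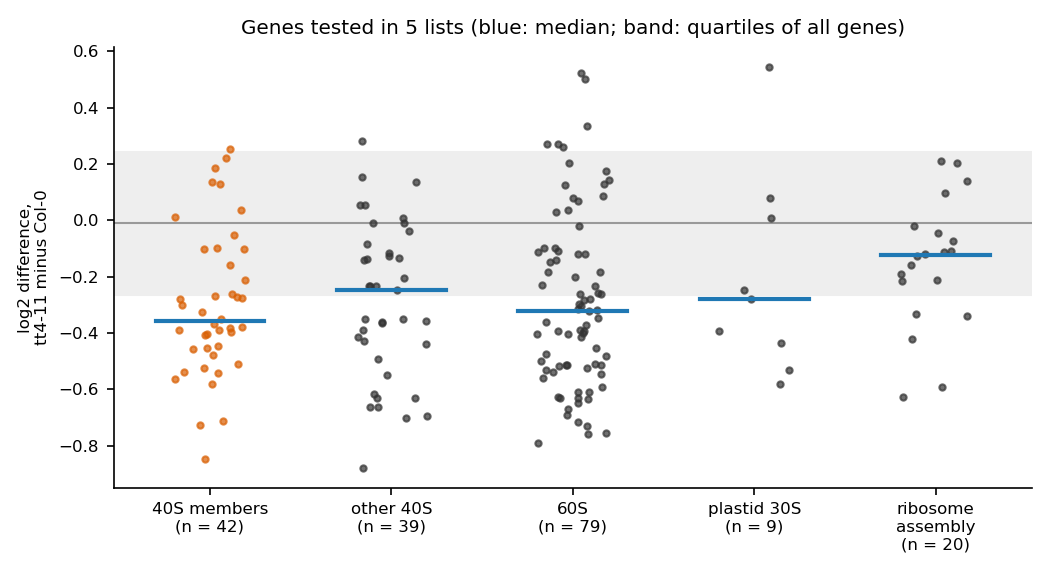
Log2 difference between tt4-11 and Col-0 (y axis) of each tested gene in 5 lists: the 40S members (orange), other 40S genes, 60S genes, plastid 30S genes and ribosome assembly genes, with the median of each in blue. The grey line and band are the median and the span between quartiles of all genes tested, and the medians of the 40S members (-0.36), of the 60S genes (-0.32) and of the plastid 30S genes (-0.28) lie below the band.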

How the data were processed

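Libraries were stranded and polyA-selected (TruSeq, single reads on an Illumina HiSeq), per the labels' protocols; the submitters' processing notes name TopHat2, HISAT2, HTSeq and DESeq2. Versions, the genome build and the strand setting: not given in the sources used here. In 6 libraries the signal values, as deposited, are read counts scaled by the authors, and Col-0 replicate 4 holds whole read counts as deposited: dividing by each library's step gave whole reads for 100% of values within 0.01. Of 23052 rows, 1 repeat was dropped.

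Models were summed per locus and analysed as log2(value + 1). Genes passing filterByExpr (minimum count 10; 13301 genes) were fitted with limma 3.58.1 (trend) in R 4.3.3, 3 tt4-11 against 4 Col-0 libraries, two-sided, Benjamini-Hochberg adjusted p of 0.05. The main test was limma because most columns are scaled; edgeR 4.0.16 and DESeq2 1.42.0 on recovered reads were alternatives. Scripts were tested on simulated data. Libraries of one group differed beyond sampling noise (chi-square of 2.04 to 5.37 per degree of freedom), so each counts as its own sample.

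The labels do not say whether replicates were separate cultures, so the spread behind each p-value is that between these samples and may be technical. A library with 0 reads allows up to 3. Positions, lengths, transcript numbers and promoters come from RefSeq TAIR10.1, matched by locus identifier for 20731 genes; the files' build may differ. Length and GC trends were fitted by lowess (span 0.3).

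Members and gene lists were chosen with earlier results of these data known. The rule for members with values in every library takes the 6 lowest (4 of them reported) and 6 highest log2 differences, all tested members of the 4 proteins whose members differ most, and the 3 with the highest Col-0 mean per kb. From other lists, at most 4 called genes with the lowest p were named, or 2 where none was called. Other members are given by mean where a protein is described. Paralogs of RPS13, RPS20 and RPS26 carry conflicting letters in the sources and are named by locus. Of the 50 members, 4 count in the totals and are not reported here singly, nor is 1 gene of another list.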

Additional observations from a re-analysis of the deposited data

Results flagged for a closer look

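In Col-0, 5 of 60 sets of 4 libraries had 1 library far from the other 3 (its gap to the nearest one, divided by the range, was above Dixon's critical value); chance gives about 1 in 20. Col-0 replicate 1 was that library for RPS6B (548.3 scaled reads, the others 460.0 to 474), RPS11A (318.1, below the others at 477.7 to 503.7) and the RPS6 sum (774.7, the others 641.1 to 653.1). Col-0 replicate 3 was low for RPS25E (25.2, the others 43.0 to 43.3), and Col-0 replicate 4 was high for the RPS26 gene AT2G40510 (371, the others 303.7 to 311.5). The RPS6 sum includes RPS6B.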

How the results depend on the processing

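Members called lower (19) numbered 3 with the length trend removed, 1 with length and GC trends removed, 3 at an adjusted p of 0.01, and 7 to 21 without each library in turn. The share of all genes called lower was 6.55%, and 4.43%, 3.81% and 2.36% under the first 3 of these. Without each library in turn it was 3.21% to 6.55%. Members called higher (0) numbered 3 and 2 under the same removals and 0 to 1 without each library. The members' median was -0.21 and -0.15 under the removals. Other 40S genes called lower (10) numbered 5, 3 and 5, with 5 to 12 without each library, and their median was -0.072 with the length trend removed and -0.35 in genes with 1 annotated transcript, an alternative chosen after seeing the data. 60S genes called lower (33) numbered 19, 16 and 16, with 17 to 36 without each library, and higher (0) 3 and 3, with 0 to 1. The cause was not tested. No called value changed sign. Of 40 members, 8 that were not called changed sign under some alternative. With the length trend removed RPS3C was at 0.022, RPS7C at 0.11, RPS18A at 0.075, RPS12C at 0.017 and RPS15D at 0.0074, and AT2G40510 was at 0.056 with length and GC trends removed. RPS6A reached -0.035 without tt4-11 replicate 3, RPS7B -0.24 without tt4-11 replicate 4 and RPS15D 0.26 without tt4-11 replicate 2. DESeq2, edgeR, TMM factors, other filters and a pseudocount of 0.1 gave 18 or 19 members called lower. The share of all genes called lower was 3.25% with DESeq2, 6.37% with edgeR and 6.53% with TMM factors. It was 3.66% with no filter, 7.36% with at least 10 in every library of a group and 6.41% with the pseudocount.

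With the replicate number as a block (replicates 2 to 4), 22 members were lower and 1 higher, and 1 60S gene was higher. Of all genes, 5.99% were lower and 6.91% higher under that setting. The numbers were not taken to pair the samples: deviations of same-numbered libraries correlated at 0.053, 0.064 and 0.041, those of others at -0.057 to 0.003. Each library correlated best with its own number, but the values were small. The deviations were taken from group means, so these correlations depend on each other and cannot decide pairing.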
